A study of Homo sapiens with 6 samples.

Results

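The machinery that makes microRNAs and silences their target mRNAs was followed through 10 of its genes, DROSHA, DGCR8, XPO5, DICER1, TARBP2, AGO1, AGO2, TNRC6A, TNRC6B and CNOT1. They were taken by gene symbol from the 26255 symbols of each file, and all 10 were found under these names. RNA-seq was performed in the human cell line BxPC-3, established from a pancreatic cancer, with 2 libraries for each of 3 groups. Parent cells received no treatment, NC-1 cells were transfected with a negative control RNA, and miR-4711-5p cells were transfected with a double-stranded miR-4711-5p. The transfected cells were compared 36 h after transfection, and no group carried a further genetic change or agent in the sources used here. Separate cultures are not named for the 2 libraries of a group, so p-values measure the spread between these libraries, which may be technical. The methods list 2 negative control RNAs, and which of them NC-1 stands for is not stated. No mock transfection is among the 6 libraries.

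A microRNA is cut from its primary transcript in the nucleus by the Microprocessor, in which the ribonuclease DROSHA works with the RNA-binding protein DGCR8. XPO5 carries the hairpin to the cytoplasm, where DICER1, with its partner TARBP2, cuts it to a short duplex. One strand stays in an Argonaute protein such as AGO1 or AGO2, which recruits the GW182 proteins TNRC6A and TNRC6B. These in turn bring in the CCR4-NOT deadenylase, built on the scaffold CNOT1, which shortens the poly(A) tail of the target. A short synthetic duplex such as those transfected here needs neither the Microprocessor nor XPO5 nor the cut by DICER1. It uses the same Argonautes and the same silencing complex.

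The strand sequence of miR-4711-5p is shown because its seed defines the sites searched in the members. The mature strand, from RefSeq, lies at chr1:59733269-59733291 on the minus strand (GRCh38.p14). Bases 2 to 8, the seed, are in capitals and the sequence is written 5′ to 3′.
hsa-miR-4711-5p: uGCAUCAGgccagaagacaugag
A full match to the seed is CTGATGC (7mer-m8), TGATGCA is the match to bases 2 to 7 followed by an A (7mer-A1), and CTGATGCA (8mer) holds both. Sites were searched on the mRNA strand of protein-coding transcripts of GENCODE v44 on GRCh37, which is the build hg19 of the files. No other human mature miRNA in the RefSeq table had this seed.

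Of the 10 members, 5 held a site in an annotated 3′ UTR (DGCR8, DICER1, AGO2, TNRC6B and CNOT1), beside 20.6% of the 10593 tested genes with an annotated 3′ UTR. The longest annotated 3′ UTRs of the members had a median of 2089 nt, against 1504 nt over the tested genes, and no test was made of either difference. The 3′ UTR sites, and the coding site of DICER1, the member with the largest decrease with miR-4711-5p against NC-1, are printed with 8 bases of flank on each side and the site in capitals. Those of AGO4, a paralogue described below, are added.
DICER1 3′ UTR, chr14:95556205-95556211, minus strand: ttagttttCTGATGCcacatagt
DICER1 3′ UTR, chr14:95554744-95554750, minus strand: taaactacCTGATGCcaggagct
DICER1 coding sequence, chr14:95569720-95569726, minus strand: cacttaccCTGATGCgcatgagg
DGCR8 3′ UTR, chr22:20099317-20099323, plus strand: agcctgtgCTGATGCcatccagg
TNRC6B 3′ UTR, chr22:40726594-40726600, plus strand: tcaccaagTGATGCAttttagca
TNRC6B 3′ UTR, chr22:40727227-40727233, plus strand: gttgctgtTGATGCAaacagggt
CNOT1 3′ UTR, chr16:58554511-58554517, minus strand: agaggcagCTGATGCcatgcact
AGO4 3′ UTR, chr1:36319362-36319368, plus strand: agcactgtCTGATGCgtcaacaa
AGO4 3′ UTR, chr1:36319424-36319431, plus strand: tatcttttCTGATGCActggactg
The only 8mer among the members was in AGO2, 6119 nt into a 3′ UTR that is 11888 nt long, which 1 of the 2 transcripts with an annotated 3′ UTR held, and its sequence is not printed. The DICER1 sites in the 3′ UTR started 624 and 2085 nt after the stop codon in the longest 3′ UTR, and 6 and 5 of its 12 coding transcripts held them. DROSHA, XPO5, TARBP2, AGO1 and TNRC6A held no site in a 3′ UTR. In coding sequences, DROSHA, DICER1, TNRC6A and TNRC6B held 1 site each and CNOT1 held 3, of which only that of DICER1 is printed. Thus 5 of the 10 members had a coding site, beside 25.1% of the same 10593 tested genes.

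**Figure D1:**
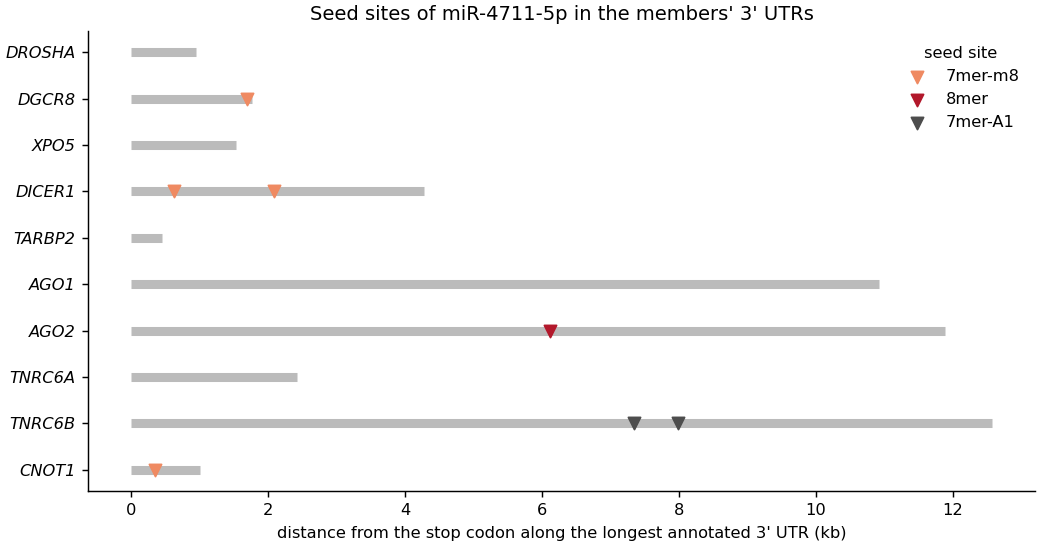
Grey bars show the longest annotated 3′ UTR of each member, with the distance from the stop codon in kb on the x axis, and triangles show the seed sites of miR-4711-5p by type. DICER1 and TNRC6B hold 2 sites each, AGO2 holds the only 8mer, and DROSHA, XPO5, TARBP2, AGO1 and TNRC6A hold none.

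The deposited values are FPKM, a level scaled by exon length and by library size, and not counts. The libraries summed to between 493145 and 550772 FPKM, and depth in reads is unknown. Relative depth was judged by the most common ratio to Parent 1 among genes above 0 and under 0.1 FPKM in both libraries. By this ratio the libraries had 0.751 to 1.21 times the depth of Parent 1. Between 29.1% and 36.9% of the 854 to 976 genes compared lay close to that ratio. All 7 epithelial markers were expressed in every library, with a sum of 5384 to 6367 FPKM. Within this sum CDH1, the adhesion protein E-cadherin, was lower with miR-4711-5p (29.6 FPKM, against 115 in Parent and 109.5 in NC-1, log2 fold changes -1.93 and -1.85), as was KRT19 (-0.85 and -0.50), while CLDN4 (0.72 and 0.45) and KRT18 (0.19 and 0.33) were higher, all with a limma adjusted p of at most 0.0138. EPCAM, KRT7 and KRT8 were called against NC-1 but not against Parent. The epithelial markers thus did not move as 1 group. The pancreatic acinar genes CPB1, CELA3A, PNLIP and AMY2A were listed at 0 in all 6. The 6 acinar markers summed to 0.730 and 1.57 FPKM in Parent, 2.73 and 2.62 in NC-1, and 3.18 and 5.10 with miR-4711-5p, nearly all of it PRSS1. Leukocyte markers summed to 0.563 to 0.979 FPKM and fibroblast markers to 1.31 to 2.47 FPKM. The part of these markers in the results was not tested. In bulk RNA, fewer cells of a kind and less RNA per cell cannot be told apart.

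In Parent cells the members spanned a 22.5-fold range of level in FPKM. CNOT1 was highest at 69.7 ± 0.0661 (SD, n = 2 libraries). DROSHA followed at 32.0 ± 1.14, then TARBP2 at 24.6 ± 0.204 and XPO5 at 20.8 ± 0.317. AGO2 had 16.5 ± 0.472, DICER1 14.7 ± 0.0124, DGCR8 13.5 ± 0.453 and TNRC6A 13.0 ± 0.382. AGO1 at 7.94 ± 0.204 and TNRC6B at 3.10 ± 0.166 were lowest. DGCR8 and TNRC6A were the only neighbours in this order whose libraries overlapped. Averaged over the 6 libraries, CNOT1 stood above 89.1% of the 12040 tested genes and DROSHA above 74.5%, while AGO1 stood above 35.4% and TNRC6B above 17.9%. The other 6 members lay between 53.8% (DGCR8) and 69.4% (TARBP2). CNOT1 and DROSHA kept the first 2 places and AGO1 and TNRC6B the last 2 in all 3 groups. Between these, TNRC6A was in place 8 in Parent, 4 in NC-1 and 5 with miR-4711-5p, XPO5 in places 4, 7 and 4, and DICER1 in places 6, 6 and 8. In NC-1 the libraries of TARBP2 and TNRC6A overlapped, as did those of AGO2 and DICER1, and with miR-4711-5p those of TARBP2 and XPO5. FPKM is per exon length, so these levels rest on the gene models the authors used, which the sources used here do not give.

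**Figure D2:**
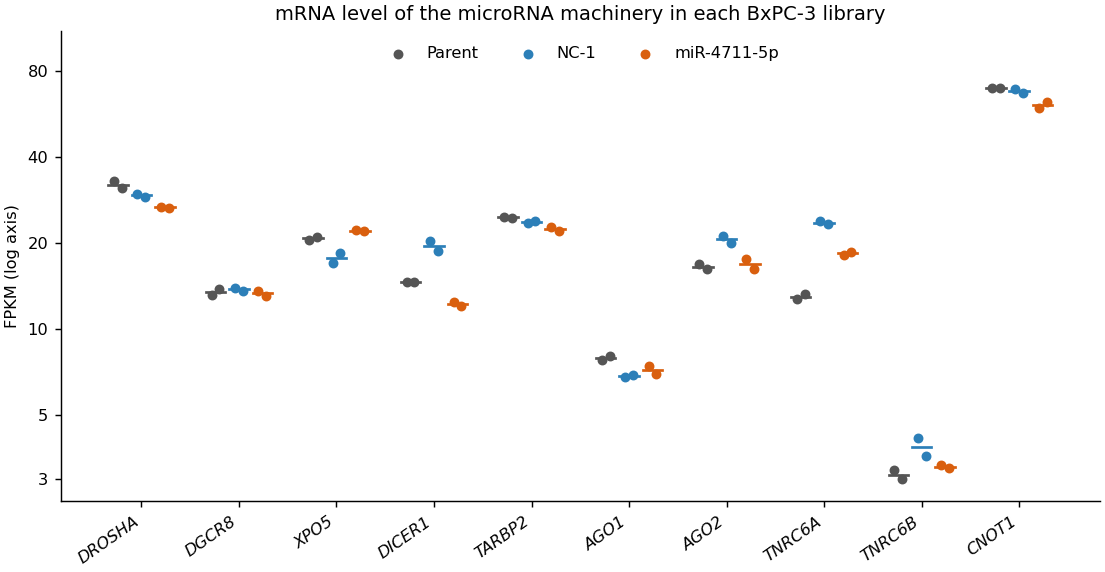
Each point is the FPKM of a member in 1 library, on a log axis, and each bar is the mean of the 2 libraries of a group. TNRC6A, DICER1 and AGO2 are higher in NC-1 than in Parent, and with miR-4711-5p DICER1 lies below both control groups while TNRC6A lies between them.

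All 10 members passed the filter of a mean of at least 1 FPKM and were tested among 12040 genes with limma on log2(FPKM + 1), where fold changes of low genes are understated. Between miR-4711-5p and Parent, 4 of the 10 passed an adjusted p of 0.05 (limma, Benjamini-Hochberg over all genes tested), beside 43.4% of all genes. TNRC6A was higher, beside 18.7% of all genes, and DROSHA, DICER1 and CNOT1 were lower, beside 24.7%. Between miR-4711-5p and NC-1, 5 of the 10 passed, beside 39.6% of all genes. XPO5 was higher, beside 18.4%, and DICER1, TNRC6A, AGO2 and CNOT1 were lower, beside 21.2%. Between NC-1 and Parent, 4 of the 10 passed, beside 27.2% of all genes. TNRC6A, DICER1 and AGO2 were higher, beside 12.1%, and XPO5 was lower, beside 15.1%. The share of members called was thus near that of all genes in both comparisons with miR-4711-5p. When the libraries were rescaled to an equal sum of FPKM, higher genes made up 69.3%, 58.4% and 69.9% of all calls in place of 43.1%, 46.5% and 44.4%, and the members called became 2 higher and 0 lower, 1 higher and 3 lower, and 4 higher and 0 lower, in the same order of comparisons. Under that scale 33.3% of all genes tested were called higher and 14.7% lower in the first comparison, 24.3% and 17.3% in the second, and 19.3% and 8.3% in the third.

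The size of the differences was small for most members. The median size of the log2 fold change, without its sign, was 0.13 over the members and 0.19 over all genes for miR-4711-5p against Parent, and 0.17 and 0.18 against NC-1. For NC-1 against Parent it was 0.20 over the members and 0.14 over all genes. The signed medians of the members were -0.07, -0.15 and -0.00 in the same order of comparisons, beside -0.01, 0.00 and -0.01 over all genes. In that order, the libraries of the groups compared did not overlap for 8, 10 and 9 of the 10 members. Over all genes tested this held for 74.2%, 72.4% and 65.5%, so a lack of overlap is common and sets no member apart. The comparisons share libraries, since Parent and NC-1 each serve as the reference of miR-4711-5p, so they are not independent of each other. With 2 libraries in each group an exact permutation test cannot give a p below 1 in 3, so each p below is limma's. Its error combines the spread of the gene itself with a spread taken from all genes.

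**Figure D3:**
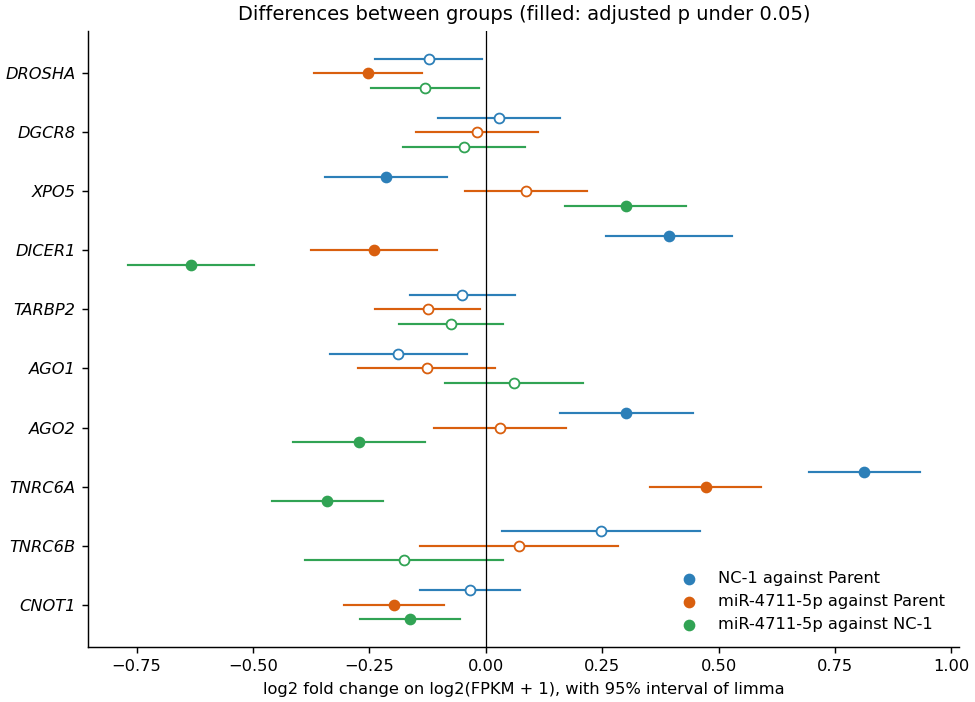
Points are log2 fold changes on the log2(FPKM + 1) scale for the 3 comparisons, lines are 95% intervals from limma, and filled points passed an adjusted p of 0.05. The largest difference is that of TNRC6A in NC-1 against Parent (0.81), and the largest decrease with miR-4711-5p is that of DICER1 against NC-1 (-0.63).

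Of the Microprocessor pair, DROSHA fell with miR-4711-5p against Parent, while no difference of DGCR8 passed the threshold. DROSHA, the ribonuclease, encoded at chr5:31400601-31532303 (GRCh37, minus strand), had 32.8 and 31.2 FPKM in the Parent libraries, 29.7 and 28.9 in NC-1, and 26.8 and 26.6 with miR-4711-5p. The 3 groups did not overlap, and their order was Parent, NC-1, miR-4711-5p. Against Parent, DROSHA fell by 16.6% with miR-4711-5p (log2 fold change -0.25 ± 0.05, SE, limma adjusted p = 0.00554), a call kept in 14 of 15 alternatives and lost after equal-sum rescaling (-0.12, adjusted p = 0.0793). Its differences between miR-4711-5p and NC-1 (-0.13, 95% interval -0.25 to -0.02, limma adjusted p = 0.0709) and between NC-1 and Parent (-0.12, limma adjusted p = 0.105) missed the threshold. DGCR8, which holds the primary transcript for DROSHA and is encoded at chr22:20067744-20099400 (plus strand), had 13.2 and 13.9 FPKM in Parent, 14.0 and 13.6 in NC-1, and 13.6 and 13.0 with miR-4711-5p. Its libraries overlapped between Parent and each other group, and the log2 difference of miR-4711-5p from Parent was -0.02 (95% interval -0.15 to 0.11, limma adjusted p = 0.799). A decrease as large as that estimated for DROSHA lies outside this interval. The ratio of DROSHA to DGCR8 within a library, which no rescaling of libraries can move, was 2.49 and 2.25 in Parent, 2.13 and 2.12 in NC-1, and 1.96 and 2.04 with miR-4711-5p. It was highest in both Parent libraries and lowest in both miR-4711-5p libraries.

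XPO5, the export receptor for precursor hairpins (chr6:43490072-43543775, minus strand), was lowest in NC-1. Its FPKM was 20.6 and 21.0 in Parent, 17.1 and 18.5 in NC-1, and 22.2 and 21.99 with miR-4711-5p. Both NC-1 libraries were below all others. With miR-4711-5p, XPO5 was 1.24-fold above NC-1 (log2 fold change 0.30 ± 0.06, SE, limma adjusted p = 0.00502). In NC-1 it fell by 14.4% against Parent (log2 fold change -0.21, limma adjusted p = 0.0294), a call that was lost in 8 of 15 alternatives, with adjusted p-values from 0.0203 to 0.129 over all of them. Between miR-4711-5p and Parent the log2 difference was 0.09 (95% interval -0.04 to 0.22, limma adjusted p = 0.248). It passed the threshold only when the libraries were rescaled to an equal sum (0.22, limma adjusted p = 0.0179).

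DICER1, the ribonuclease that cuts hairpins to duplexes (chr14:95552565-95624347, minus strand), differed in all 3 comparisons. It had 14.7 and 14.6 FPKM in Parent, 20.4 and 18.8 in NC-1, and 12.4 and 12.1 with miR-4711-5p. No 2 groups overlapped, with NC-1 highest and miR-4711-5p lowest. Against NC-1, DICER1 fell by 37.4% with miR-4711-5p, and the log2 fold change was -0.63 ± 0.06 (SE, limma adjusted p = 0.000217, and at most 0.00452 over the 15 alternatives). It was 1.34-fold higher in NC-1 than in Parent (log2 fold change 0.39, limma adjusted p = 0.00439, and at most 0.0316 over the alternatives). Against Parent, the decrease with miR-4711-5p was smaller, at 16.4% (log2 fold change -0.24, 95% interval -0.38 to -0.11, limma adjusted p = 0.0135). This call against Parent was lost when any 1 of Parent 1, Parent 2, miR-4711-5p 1 or miR-4711-5p 2 was left out, with log2 fold changes of -0.22 to -0.26 and adjusted p-values of 0.0518 to 0.0794, and after rescaling to an equal sum (-0.11, limma adjusted p = 0.161). DICER1 was thus lower with miR-4711-5p than in either control, and NC-1 and Parent stood on different levels.

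TARBP2, the double-stranded RNA-binding partner of DICER1 (chr12:53894705-53900215, plus strand), stayed within a narrow range, from 22.1 to 24.7 FPKM over the 6 libraries. It had 24.7 and 24.4 FPKM in Parent, 23.4 and 23.96 in NC-1, and 22.8 and 22.1 with miR-4711-5p. The groups did not overlap, in the order Parent, NC-1, miR-4711-5p, and no difference passed the threshold. Its log2 difference from Parent with miR-4711-5p was -0.13 (95% interval -0.24 to -0.01, limma adjusted p = 0.0695). PRKRA, the related protein PACT that also binds DICER1, had 15.2 ± 0.0980 FPKM in Parent, 14.6 ± 0.399 in NC-1 and 15.0 ± 0.569 with miR-4711-5p (SD, n = 2), with limma adjusted p-values of 0.444 to 0.790. The ratio of DICER1 to TARBP2 was 0.593 and 0.599 in Parent, 0.868 and 0.784 in NC-1, and 0.544 and 0.547 with miR-4711-5p. The ratio of DICER1 to DROSHA was 0.447 and 0.469 in Parent, 0.684 and 0.650 in NC-1, and 0.463 and 0.454 with miR-4711-5p. By the latter ratio, Parent and miR-4711-5p overlapped and NC-1 stood above both.

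**Figure D4:**
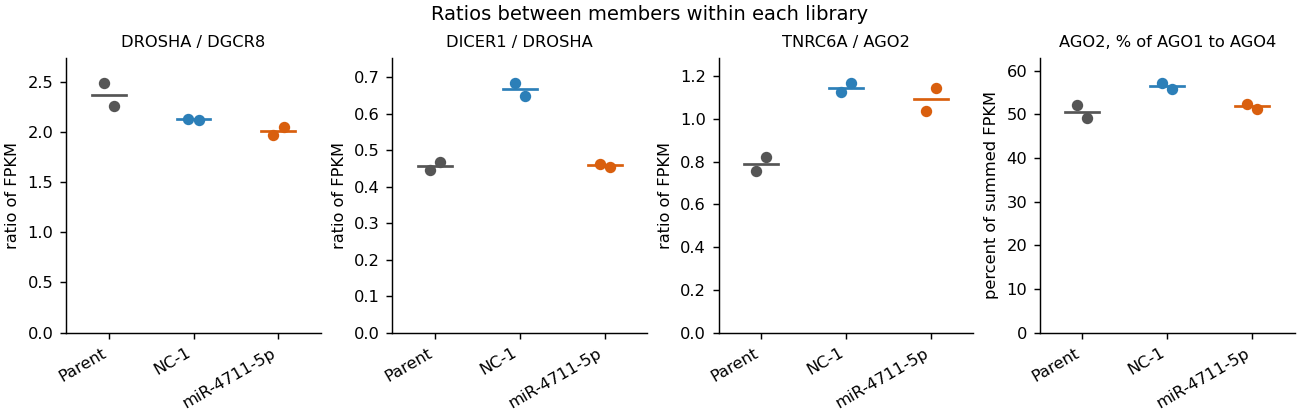
Each point is a ratio of FPKM, or the percent of the summed FPKM of AGO1 to AGO4 that AGO2 makes up, in 1 library, and bars are means of the 2 libraries, with all y axes starting at 0. The ratio of DICER1 to DROSHA is 0.650 and 0.684 in NC-1 and 0.447 to 0.469 in the other 4 libraries.

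Among the Argonautes, which hold the guide strand, AGO2 is the one known for cutting a fully paired target. AGO2 had 16.9 and 16.2 FPKM in Parent, 21.2 and 20.03 in NC-1, and 17.6 and 16.2 with miR-4711-5p. The NC-1 libraries lay above the other 4, and Parent and miR-4711-5p overlapped. AGO2 was 1.25-fold higher in NC-1 than in Parent (log2 fold change 0.30 ± 0.06, SE, limma adjusted p = 0.0122), and with miR-4711-5p it fell by 18.0% against NC-1 (log2 fold change -0.27, limma adjusted p = 0.0108). The first of these calls was lost without Parent 2 (0.27, adjusted p = 0.0578) and without NC-1 1 (0.26, adjusted p = 0.0691). The second was lost without NC-1 1 (-0.23, adjusted p = 0.0628) and without miR-4711-5p 2 (-0.22, adjusted p = 0.0800). Against Parent the log2 difference with miR-4711-5p was 0.03 (95% interval -0.11 to 0.17, limma adjusted p = 0.718).

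AGO1 (chr1:36335409-36396133, plus strand), which lacks the cutting activity of AGO2 towards most targets, had 7.79 and 8.08 FPKM in Parent, 6.78 and 6.91 in NC-1, and 7.40 and 6.96 with miR-4711-5p. Its levels were in another order than those of AGO2, with Parent highest and NC-1 lowest. None of its differences passed the threshold, the nearest being NC-1 against Parent (log2 fold change -0.19, limma adjusted p = 0.0643). AGO3 also missed it, at 6.23 ± 0.715, 6.22 ± 0.183 and 7.16 ± 0.0944 FPKM in Parent, NC-1 and miR-4711-5p (SD, n = 2). AGO4, the lowest of the family, had 1.95 and 2.01 FPKM in Parent, 2.76 and 2.82 in NC-1, and 1.36 and 1.39 with miR-4711-5p. All 3 groups of AGO4 stood apart, in the same order as for DICER1. With miR-4711-5p, AGO4 was lower than in NC-1 (log2 fold change -0.67 ± 0.09, SE, limma adjusted p = 0.00144) and than in Parent (-0.33, limma adjusted p = 0.0268), and it was higher in NC-1 than in Parent (0.35, limma adjusted p = 0.0330). Its 3′ UTR holds a 7mer-m8 site and an 8mer, 156 and 218 nt after the stop codon, and AGO3, whose log2 differences with miR-4711-5p were 0.18 against each control and were not called, also holds an 8mer, 14646 nt into a 3′ UTR of 16755 nt. Whether any site takes part in these differences was not tested. The Argonautes are similar in sequence, and how reads that match more than one of them were assigned is not given in the sources used here.

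The summed level of AGO1 to AGO4 was 32.3 and 33.0 FPKM in Parent, 37.1 and 35.9 in NC-1, and 33.5 and 31.7 with miR-4711-5p. AGO2 made up 52.2% and 49.0% of it in Parent, 57.2% and 55.9% in NC-1, and 52.3% and 51.3% with miR-4711-5p. Both the sum and the share were highest in the NC-1 libraries, and Parent and miR-4711-5p overlapped in each.

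The largest difference of any member was that of TNRC6A, a GW182 scaffold that binds Argonaute and the deadenylases (chr16:24621530-24838953, plus strand). TNRC6A had 12.7 and 13.3 FPKM in Parent, 23.8 and 23.4 in NC-1, and 18.2 and 18.6 with miR-4711-5p. The 3 groups were well apart from each other, with miR-4711-5p between the controls. NC-1 was 1.81-fold above Parent (log2 fold change 0.81 ± 0.05, SE, limma adjusted p = 0.000371). Cells with miR-4711-5p were 1.42-fold above Parent (log2 fold change 0.47, limma adjusted p = 0.000404), but TNRC6A fell by 21.9% against NC-1 (log2 fold change -0.34, limma adjusted p = 0.00199). All 3 calls held in each of the 15 alternatives, with adjusted p-values of at most 0.00670, 0.00680 and 0.0222 in that order. TNRC6A was therefore raised in both transfected groups, and the sign of its difference with miR-4711-5p depended on the reference.

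TNRC6B, its paralogue (chr22:40440821-40731812, plus strand), was the lowest of the members, and the standard error of its log2 differences (0.09) was the largest among them. It had 3.22 and 2.98 FPKM in Parent, 4.15 and 3.59 in NC-1, and 3.34 and 3.27 with miR-4711-5p. The groups kept the same order as for TNRC6A, but no difference passed the threshold. The log2 difference of NC-1 from Parent was 0.25 (95% interval 0.03 to 0.46, limma adjusted p = 0.0828), and it passed after rescaling to an equal sum (0.31, limma adjusted p = 0.0409). TNRC6C, the third of the family, averaged 0.712 FPKM in Parent, 0.759 in NC-1 and 0.711 with miR-4711-5p, and it fell below the filter. TNRC6A made up 76.2% and 78.5% of the summed FPKM of the 3 genes in Parent, 82.8% and 84.4% in NC-1, and 81.6% and 82.6% with miR-4711-5p. Its share was thus higher in every transfected library than in the Parent libraries. The ratio of TNRC6A to AGO2 was 0.755 and 0.819 in Parent, 1.12 and 1.17 in NC-1, and 1.04 and 1.15 with miR-4711-5p, where the 2 transfected groups overlapped and both were above Parent.

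CNOT1, the scaffold of the CCR4-NOT deadenylase (chr16:58553855-58663789, minus strand), was the highest of the members. It had 69.7 and 69.6 FPKM in Parent, 69.3 and 66.7 in NC-1, and 59.2 and 62.0 with miR-4711-5p. The highest library with miR-4711-5p was still below the lowest of the 4 controls. CNOT1 fell by 13.0% against Parent (log2 fold change -0.20 ± 0.05, SE, limma adjusted p = 0.0118) and by 10.8% against NC-1 (log2 fold change -0.16, limma adjusted p = 0.0269). The call against Parent was lost without miR-4711-5p 1 (-0.16, adjusted p = 0.0902) and after rescaling to an equal sum (-0.06, adjusted p = 0.293). Against NC-1, it was lost in 5 of the 15 alternatives, among them the fits without NC-1 1 (-0.14, adjusted p = 0.110), without miR-4711-5p 1 (-0.13, adjusted p = 0.160) and without miR-4711-5p 2 (-0.20, adjusted p = 0.0580). NC-1 and Parent differed by -0.03 (95% interval -0.14 to 0.07, limma adjusted p = 0.605).

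The other genes of the pathway were described through a list of 68 genes, of which 66 were tested. The shares called were below those over all genes for 2 of the comparisons and close to it for the third. Between miR-4711-5p and Parent 11 were higher and 11 lower (33.3% called), between miR-4711-5p and NC-1 again 11 and 11 (33.3%), and between NC-1 and Parent 8 and 12 (30.3%). After equal-sum rescaling these became 25 higher and 5 lower, 19 higher and 7 lower, and 13 higher and 6 lower, so the balance of directions in this list rests on the scale of the libraries. No test of the list as a whole was made, and the alternatives were followed gene by gene for the members only. Whether the call of a single other gene, AGO4 included, held in them is not given here. Of the 68 genes, 18 held a seed site in a 3′ UTR, beside 20.6% of the 10593 tested genes with an annotated 3′ UTR. BTG2, CNOT4 and DCP2 were among the 18, and all 18 were tested. With miR-4711-5p, 4 of these 18 were higher and 4 lower against Parent, beside 18.7% and 24.7% of all genes. Against NC-1, 2 were higher and 5 lower, beside 18.4% and 21.2%. In NC-1 against Parent, 6 were higher and 1 lower, beside 12.1% and 15.1%. No test of these shares was made. Median log2 fold changes over the 66 genes were -0.01, 0.04 and -0.00. LIN28A, which blocks the maturation of let-7, was listed at 0 in all 6 libraries.

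Of the other subunits and partners of CCR4-NOT, 8 of 14 passed against Parent and 8 of 14 against NC-1, in each case 3 higher and 5 lower with miR-4711-5p, which is 57.1% of the list beside 43.4% and 39.6% of all genes, with no test of that difference. CNOT8, one of the catalytic deadenylases, had 15.8 and 17.5 FPKM in Parent, 17.3 and 17.4 in NC-1, and 13.0 and 11.9 with miR-4711-5p. It fell against Parent (log2 fold change -0.40, limma adjusted p = 0.00331) and NC-1 (-0.45, limma adjusted p = 0.00210). BTG2, an antiproliferative protein that recruits the deadenylase, had 9.01 and 9.77, 12.3 and 12.0, and 5.72 and 6.17 FPKM in the same order of groups. Its difference from NC-1 (log2 fold change -0.92, limma adjusted p = 7.80e-05) was larger than that of any member. BTG1, its paralogue, went the other way, to 18.6 ± 0.985 FPKM from 13.8 ± 1.48 in Parent and 14.0 ± 0.238 in NC-1 (SD, n = 2), a log2 fold change of 0.41 and 0.38 (limma adjusted p = 0.00529 and 0.00783). CNOT4, a ubiquitin ligase of the complex, was higher against both controls by 0.21 and 0.20 (limma adjusted p = 0.0314 and 0.0365).

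**Figure D5:**
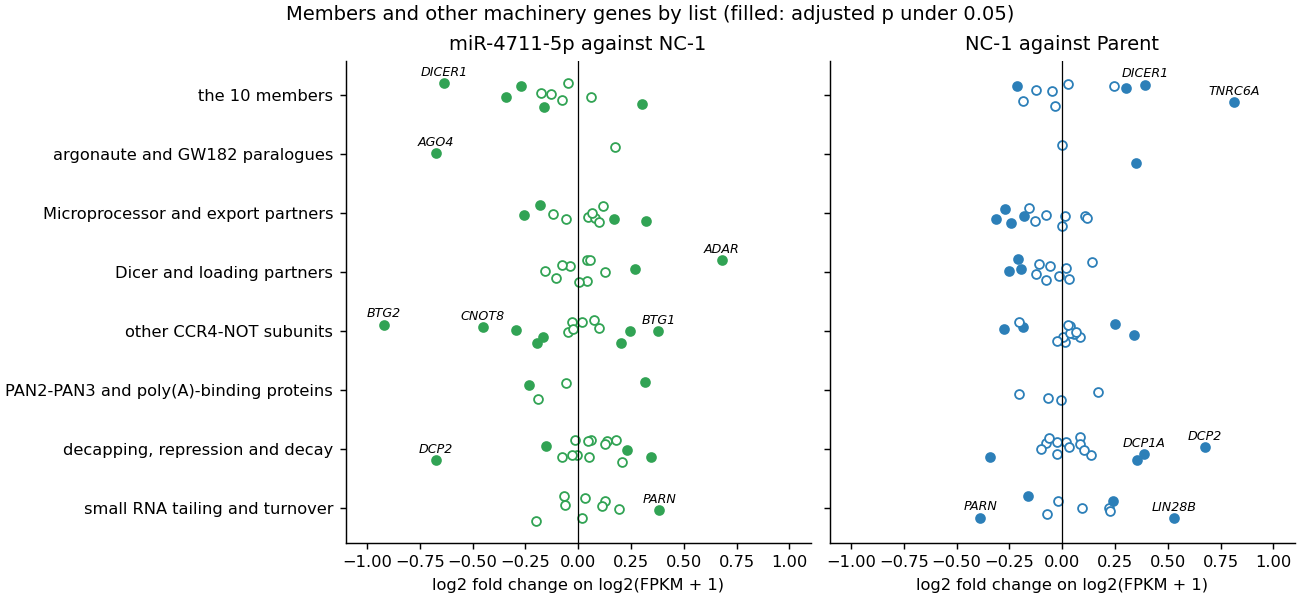
Points are log2 fold changes on the log2(FPKM + 1) scale of the members and of 7 lists of other machinery genes, for miR-4711-5p against NC-1 and for NC-1 against Parent, filled points passed an adjusted p of 0.05, and the vertical spread within a list carries no value. BTG2 (-0.92) has the largest decrease in the left panel and ADAR (0.68) the largest increase, and TNRC6A (0.81) has the largest increase in the right panel.

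ADAR, the editing enzyme that binds double-stranded RNA and has an interferon-inducible isoform, had 55.0 and 54.6 FPKM in Parent, 55.2 and 55.8 in NC-1, and 91.4 and 87.6 with miR-4711-5p. It was 1.63-fold above Parent (log2 fold change 0.70, limma adjusted p = 3.19e-05) and 1.61-fold above NC-1 (0.68, limma adjusted p = 4.10e-05), and NC-1 and Parent differed by 0.02 (limma adjusted p = 0.773). Among the other 10 partners of Dicer and of Argonaute loading, none was called in 1 direction against both controls with its miR-4711-5p values outside those of the controls. HNRNPA1, which binds some primary microRNAs, fell by 16.6% against Parent and 16.4% against NC-1 (limma adjusted p = 0.00209 and 0.00247), and PABPC1, the poly(A)-binding protein that GW182 proteins contact, fell by 15.3% and 14.8% (limma adjusted p = 0.00169 and 0.00219). The annotation names 74 pseudogenes after HNRNPA1 and 13 after PABPC1, and reads shared with these were not measured. It names none after the members.

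Of the 15 decapping, repression and decay factors, 4 were higher and none lower with miR-4711-5p against Parent, and 2 were higher and 2 lower against NC-1, so that 26.7% of the list was called in each comparison. Of the 9 tailing and turnover factors tested, 2 were higher and none lower against Parent, and 1 was higher and none lower against NC-1, or 22.2% and 11.1% of the list. Over all genes the shares called were 43.4% against Parent (18.7% higher, 24.7% lower) and 39.6% against NC-1 (18.4% higher, 21.2% lower). Between NC-1 and Parent, 2 of the 9 tailing and turnover factors were higher and 2 lower (44.4%). Of the 15 decapping, repression and decay factors, 3 were higher and 1 lower in that comparison (26.7%), beside 27.2% of all genes called (12.1% higher, 15.1% lower). No test of these shares was made. None of these 24 genes met the naming rule. DCP2, the decapping enzyme, is named after its values were seen, since it had the largest difference between NC-1 and Parent among the other machinery genes. It had 3.24 and 2.99 FPKM in Parent, 5.81 and 5.35 in NC-1, and 3.39 and 2.87 with miR-4711-5p. NC-1 stood above the other 4 libraries (log2 fold change against Parent 0.68, limma adjusted p = 0.00362), and Parent and miR-4711-5p overlapped (0.00, limma adjusted p = 0.987).

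The genome span of every member overlaps 1 or more genes on the opposite strand in the annotation. Among these are TRMT2A for DGCR8, POLR1C for XPO5, SETD6 for CNOT1, DICER1-AS1 for DICER1 and LINC01567 for TNRC6A. The library kit keeps the strand, and whether the strand was used in the calculation of FPKM is not given in the sources used here.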

How the data were processed

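RNA from BxPC-3 cells was sequenced by the authors from stranded mRNA libraries in single-end mode, aligned to the hg19 build by TopHat (using Bowtie2 and SAMtools) and summarised by Cuffnorm. Per the labels and the submitters' processing notes, TopHat2 was version 2.1.1, Bowtie2 2.3.5.1, SAMtools 1.2 and Cufflinks 2.2.1, while the methods section gives other versions of the first 3. The deposited values are FPKM per gene symbol, normalized by the authors for exon length and library size, and the gene annotation is not given in the sources used here.

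Genes averaging 1 FPKM or more were tested on log2(FPKM + 1) with limma 3.58.1 in R 4.3.3 (eBayes with a trend, Benjamini-Hochberg adjustment over 12040 genes), with all 6 libraries in 1 fit (3 residual and 4.15 prior degrees of freedom). Fold changes in words are ratios of mean FPKM without a pseudocount, and percent decreases come from the same means. The limma step was run on simulated data with independent noise and effects planted in few genes. Such data cannot show how the calls fare here, where many genes differ and the libraries of a group may be technical repeats. Sites were searched with Python 3.11.15 in GENCODE v44 mapped to GRCh37, and printed contexts were read from that genome with pysam 0.24.0. Symbols absent from the annotation were matched through older symbols where only 1 gene fitted.

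The members and lists were chosen with earlier results of these data known. Beside the members, AGO3, AGO4, TNRC6C and PRKRA were named whatever their values, and in each list up to 4 genes with the largest log2 fold change against NC-1 among those called in the same direction against both controls and whose miR-4711-5p values both lay above, or both below, those of the 4 controls. Alternatives varied the pseudocount, the filter, the scale of the libraries, the replicate block, the trend, the groups in the fit and the libraries. FPKM hold no counts, so no count model and no counting intervals were used.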

Additional observations from a re-analysis of the deposited data

How the results depend on the processing

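Over 15 alternatives, TNRC6A in all 3 comparisons, DICER1 against NC-1 and in NC-1 against Parent, and XPO5 with miR-4711-5p against NC-1 kept their direction and call. Rescaling to an equal sum of FPKM moved the median log2 fold change of all genes by 0.12 for miR-4711-5p against Parent and left 2 members called in place of 4 (TNRC6A and XPO5, both higher), while calls over all genes went from 5230 to 5789. Median-of-ratios rescaling moved the medians by at most 0.02.

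Among the members, directions reversed only in comparisons in which that member was not called. DGCR8 against Parent was 0.0024 after median-of-ratios rescaling, 0.11 after equal-sum rescaling, and -0.052 to 0.012 with a library left out. Equal-sum rescaling also turned DGCR8 against NC-1 to 0.0034, TARBP2 to 0.0089 against Parent and to 0.032 in NC-1 against Parent, and CNOT1 to 0.049 in NC-1 against Parent. With a library left out, DGCR8 ranged from -0.0042 to 0.059 in NC-1 against Parent, and AGO2 from -0.023 to 0.082 against Parent. TNRC6B could not be tested under a filter at 5 FPKM.

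With each library left out in turn, 2 to 4 members were called against Parent, 3 to 5 against NC-1, and 2 to 4 between NC-1 and Parent. The lowest counts came without miR-4711-5p 1 against Parent (2), without NC-1 1 or miR-4711-5p 2 against NC-1 (3 each), and without Parent 2 or NC-1 1 between these controls (2 each). The other machinery genes called numbered 10 to 24, 13 to 22 and 10 to 15 in that order, and all genes 3246 to 5185, 2887 to 4679 and 1457 to 2385. A group left with 1 library is assumed to vary like the others. Calls between NC-1 and Parent went from 3279 to 2165 without a filter. The order of the members differed from that in Parent in 3 places in NC-1 and in 3 with miR-4711-5p. Counting only 8mers left 1 of the 5 members with a site.

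The replicate numbers do not pair libraries by any label, and the correlation between groups of the difference between library 1 and library 2 was -0.01 to 0.06. With the replicate block, 4, 5 and 4 members were called in the same order, and 21, 20 and 17 other machinery genes, beside 41.4%, 37.9% and 23.8% of all genes.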
